A study of Rattus norvegicus with 9 samples.

Results

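Mitochondrial ribosomal proteins were followed in the gastrocnemius (a calf muscle that mixes fibre types) through all probe sets whose single gene symbol starts with Mrpl or Mrps and a digit. The rule gave 73 genes on 97 probe sets, of 14217 genes with a single symbol and 31042 probe sets in all. Of the 97 probe sets, 93 passed the filter on dim signals, and each of the 73 genes kept at least 1 tested probe set. The arrays came from male Wistar rats of 250 g that were infused from Alzet osmotic pumps for 7 days, with 1 array per animal and 3 animals per group. One group received dexamethasone, a synthetic glucocorticoid, at 0.7 mg/kg/day together with testosterone, given as 28 mg/kg/day in the sample labels and as 20 mg/kg/day in the series design. A second group received dexamethasone alone at 0.7 mg/kg/day, and the control group received the vehicle, propylene glycol. The design asks which transcripts differ among these treatments. Because the arrays measured RNA of whole muscle pieces, fewer cells of a type and less RNA per cell cannot be told apart.

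The mitochondrial ribosome translates the few messenger RNAs that mitochondrial DNA encodes, all of them for subunits of the respiratory chain and ATP synthase. Its ribosomal RNAs come from mitochondrial DNA, whereas its proteins are encoded in the nucleus, made on cytosolic ribosomes and imported. Most large-subunit proteins carry Mrpl symbols and most small-subunit proteins Mrps symbols; some descend from bacterial ribosomal proteins and others are specific to mitochondria. Muscle depends on this machinery for its oxidative capacity, and glucocorticoids in excess cause atrophy of fast muscle fibres.

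Array quality and make-up bear on every comparison. Skeletal muscle markers (Ckm, Acta1, Mb, Des, Ttn) had medians between -0.04 and 0.04 log2 units of the vehicle mean on all 9 arrays. The deposited scaling and spike signals split the arrays into 3 technical batches, a split made after the values had been seen. Batch A holds replicate 1 of each group and vehicle replicate 3, batch B holds replicate 2 of each group, and batch C holds replicate 3 of both treated groups and no vehicle array. The 3' to 5' signal ratio of Gapdh, a measure of RNA integrity, was 6.22 and 4.94 on the dexamethasone plus testosterone and dexamethasone arrays of batch C, against 1.06 to 1.17 on the other 7 arrays. Dexamethasone plus testosterone replicate 1 stood apart in fibre markers, its 6 slow-fibre genes having a median of -5.13 log2 units against the vehicle mean, whereas the other 8 arrays lay between -1.27 and 0.43. The 7 fibroblast markers also shifted, with array medians of 0.05, -1.47 and -1.72 after dexamethasone plus testosterone, -4.08, -1.87 and -1.38 after dexamethasone, and -0.37, 0.12 and 0.18 after vehicle. Their part in the results was not tested.

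No mitochondrial ribosomal protein gene passed the threshold in any comparison. Each of the 18625 tested probe sets was fitted by limma on log2(intensity + 16), and a call needed a Benjamini-Hochberg adjusted p under 0.05. For dexamethasone against vehicle, 0 of 73 genes were called. Of all 10428 tested genes, 77 were called higher and 59 lower, and 1.05% of all probe sets were called. For dexamethasone plus testosterone against dexamethasone, 0 of 73 were called. Of all 10428 genes, 8 were called higher and 7 lower, and 0.113% of all probe sets were called. At shares this low, 0 of 73 does not set the members apart from all genes. For dexamethasone plus testosterone against vehicle, 0 of 73 were called and so were 0% of all probe sets, although 1139 probe sets (6.12%) had an unadjusted p under 0.05. At that unadjusted level, 5 of the 73 members were higher and 2 lower in the first comparison, and 4 higher and 2 lower in the second. In the third, 0 passed it in either direction. Of all 10428 tested genes, 992 were higher and 848 lower in the first, 588 and 637 in the second, and 326 and 329 in the third. Among all probe sets 15.5%, 11% and 6.12% passed it. The lowest adjusted p of a member was 0.108, 0.104 and 0.885 in the same order. The first 2 comparisons share the dexamethasone arrays, so an array that deviates there enters both with opposite sign.

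**Figure D1:**
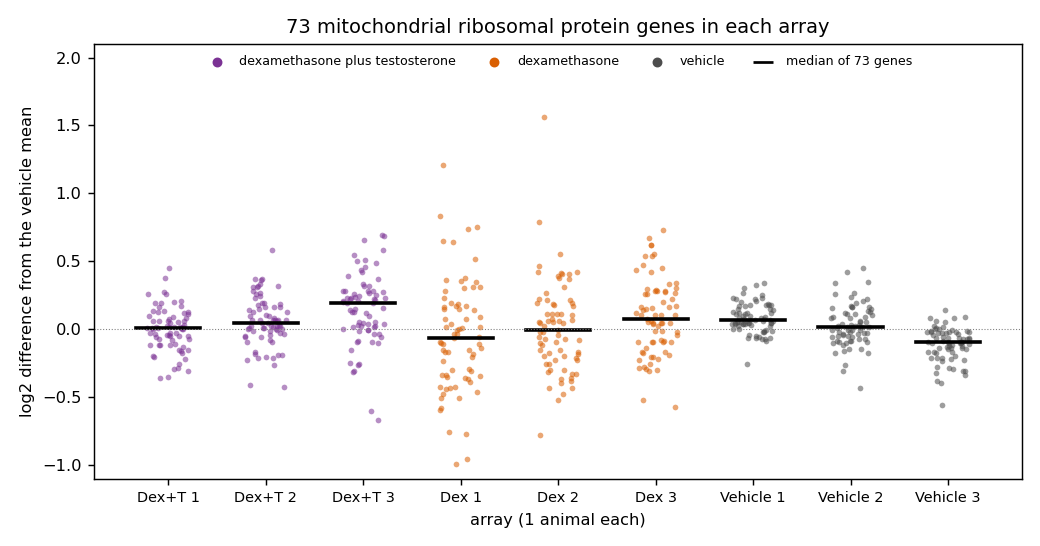
Each point is 1 of the 73 genes on 1 array, as the log2 difference from that gene's vehicle mean; the bars are array medians over the 73 genes. The medians lie between -0.09 and 0.19 on all 9 arrays, while the points spread most widely on the 3 dexamethasone arrays.

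The array medians of the 73 genes stayed close to the vehicle mean. They were 0.01, 0.05 and 0.19 log2 units on the dexamethasone plus testosterone arrays, -0.07, -0.01 and 0.08 on the dexamethasone arrays, and 0.07, 0.02 and -0.09 on the vehicle arrays. The 3 groups overlapped, and the highest median, on dexamethasone plus testosterone replicate 3, belonged to an array on which the median of all genes was also high (0.14). What differed between groups was the width of the distribution. The middle 50% of the members spanned 0.20, 0.20 and 0.28 log2 units on the dexamethasone plus testosterone arrays and 0.52, 0.41 and 0.37 on the dexamethasone arrays, against 0.12, 0.18 and 0.15 on the vehicle arrays. The vehicle arrays define the mean, which by itself narrows their spans, and they include no batch C array. How much either adds to the difference was not tested. All 10428 tested genes showed wider spans. These were 0.44, 0.44 and 0.64 after dexamethasone plus testosterone, 0.70, 0.65 and 0.59 after dexamethasone, and 0.24, 0.32 and 0.27 after vehicle. The whole table thus shared the ordering on replicates 1 and 2, whereas on replicate 3 its span was wider after dexamethasone plus testosterone than after dexamethasone.

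The members varied little among animals. Their median standard deviation within a group was 0.19 log2 units, against 0.30 for all tested genes. Over the 9 arrays, 67 of 73 members (91.8%) had a range under 1 log2 unit, against 48.5% of all tested genes. The steadiest member was Mrpl23, a large-subunit protein of bacterial descent, whose 9 values spanned 0.23 log2 units, and the most variable was Mrps27, which spanned 1.67. These ranges are a description, as bright probe sets are measured with less noise than dim ones and the lists were not matched on signal.

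Dexamethasone against vehicle gave changes on both sides of 0. Of the 73 genes, 36 lay above 0 and 37 below, with a median of 0.00 log2 units against 0.04 for all tested genes. Under median scaling of the arrays in place of quantile normalization the members' median was 0.42 and 71 of 73 lay above 0, but the median of all genes then stood at 0.28. The median size of a change, whatever its sign, was 0.18 for members and 0.27 for all genes. The 95% interval lay wholly within 1 log2 unit of 0 for 68 of 73 members (93.2%), against 61.8% of all genes. Within batch A the members' median was -0.03, within batch B it was -0.06, and without batch C it was -0.01 against 0.01 for all genes.

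**Figure D2:**
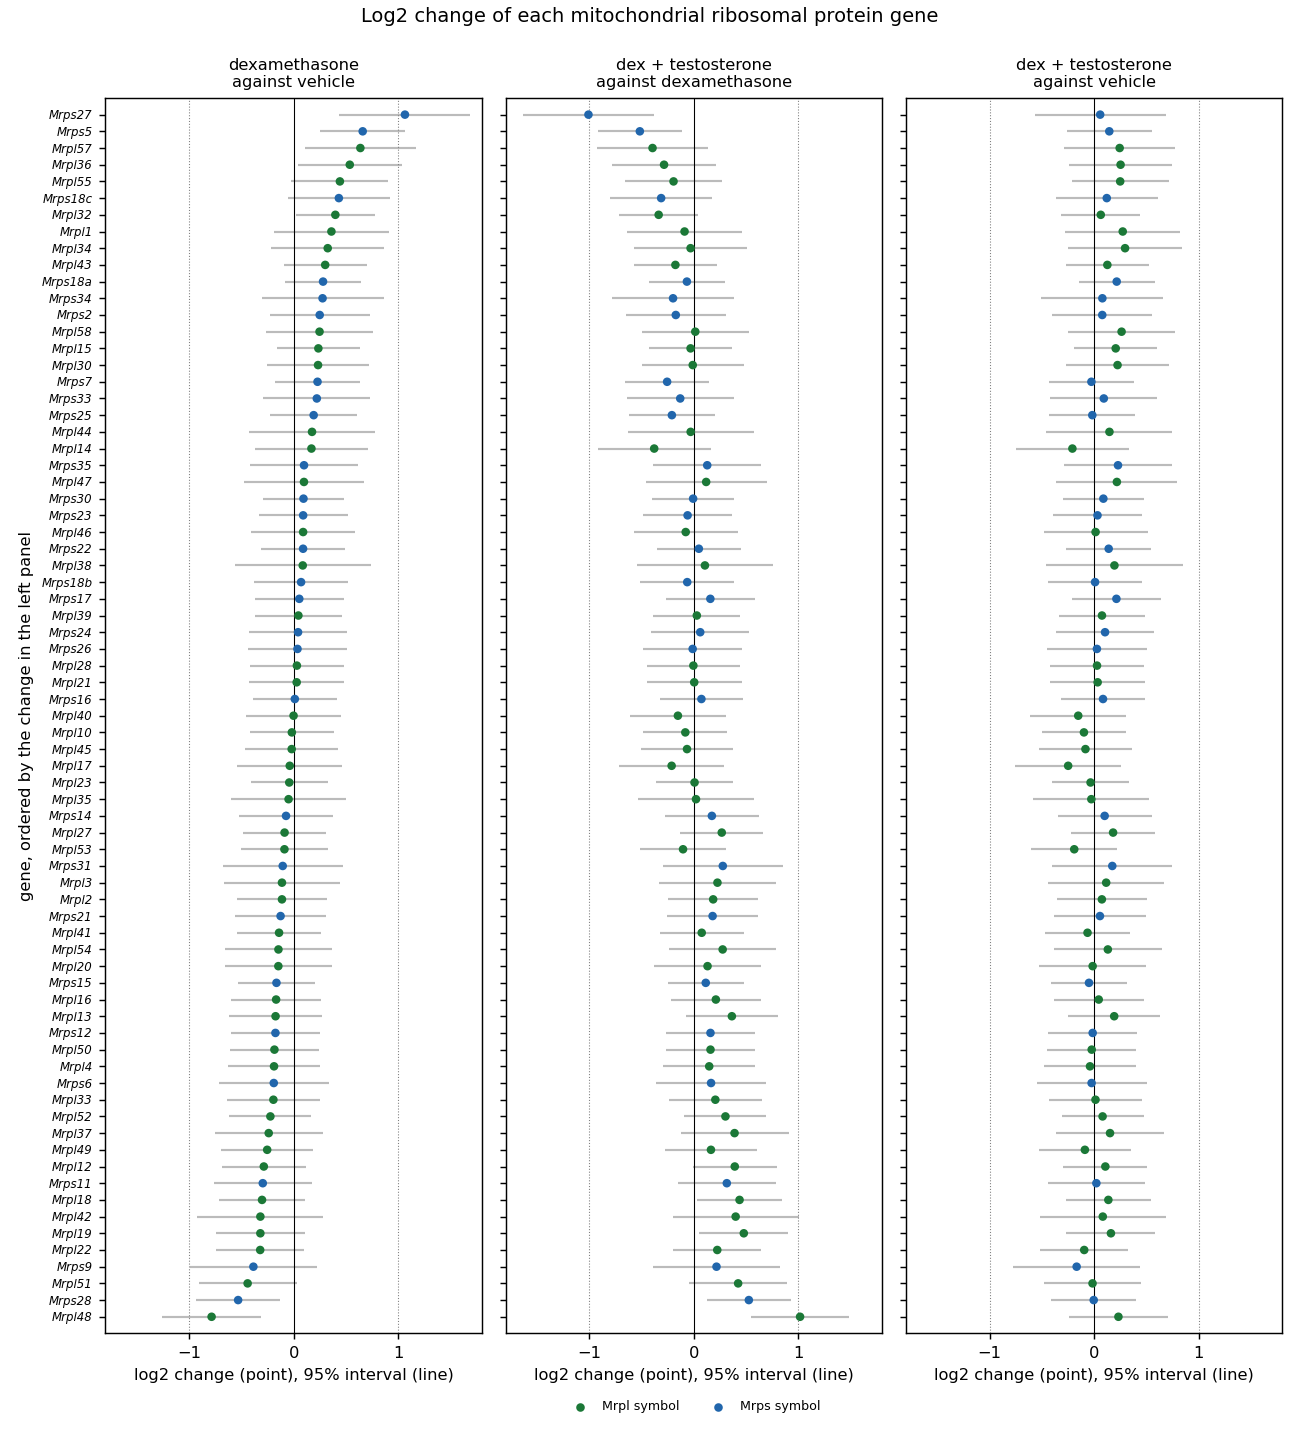
Each row is 1 of the 73 genes, ordered by its change after dexamethasone; points are log2 changes and lines are 95% intervals from limma, with dotted lines at 1 log2 unit either side of 0. In the left panel 50 of the 73 points lie within 0.25 of 0, and in the right panel 69 do.

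The largest difference was that of Mrps27, a mitochondria-specific small-subunit protein that in human cells belongs to the pentatricopeptide repeat family and binds the small-subunit ribosomal RNA. Its normalized log2 signal was 8.27, 8.43 and 8.59 on the dexamethasone plus testosterone arrays, 9.58, 9.94 and 8.80 on the dexamethasone arrays, and 8.44, 8.41 and 8.27 on the vehicle arrays. The 3 dexamethasone arrays were all above the other 6, with the batch C array closest to them. Against vehicle the change was 1.07 ± 0.28 (SE), a 2.09-fold higher signal, with an adjusted p of 0.108 in limma. Taken inside single batches it was 1.22 (batch A) and 1.53 (batch B). Without dexamethasone replicate 3 it was 1.37 with an adjusted p of 0.022, and without both batch C arrays 1.34 with an adjusted p of 0.0211, the only member called in that comparison under any alternative tried. Across all alternatives the adjusted p ran from 0.0211 to 0.356.

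Mrps27 has 2 other tested probe sets. On the first of these the values were 7.34, 7.69 and 5.11 after dexamethasone plus testosterone and 8.67, 9.62 and 6.43 after dexamethasone, against 7.20, 7.59 and 7.08 after vehicle. Both batch C arrays were far below the others of their group there, and the change against vehicle was 0.95 ± 0.84 (limma adjusted p = 0.64). Taken inside single batches it was 1.53 (A) and 2.03 (B), and for dexamethasone plus testosterone against dexamethasone -1.33 (A), -1.92 (B) and -1.33 (C), the same signs as the representing probe set. The remaining probe set changed by 0.26 ± 0.25 (limma adjusted p = 0.665), with overlapping groups.

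Mrps5, the counterpart of a bacterial small-subunit protein near the messenger RNA entry site, was the next on the high side. Its signal was 10.30, 10.48 and 10.16 after dexamethasone plus testosterone, 10.90, 10.96 and 10.62 after dexamethasone, and 10.24, 10.11 and 10.15 after vehicle. The dexamethasone arrays again did not overlap either of the other groups. The change against vehicle was 0.66 ± 0.18 (limma adjusted p = 0.119), 0.71 within batch A and 0.85 within batch B.

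Among the members lower after dexamethasone, Mrpl48, a mitochondria-specific large-subunit protein, differed most. Its signal was 10.54, 10.81 and 10.67 after dexamethasone plus testosterone, 9.45, 9.66 and 9.87 after dexamethasone, and 10.51, 10.68 and 10.13 after vehicle. All 3 dexamethasone arrays lay below the other 6. The change against vehicle was -0.78 ± 0.21 (limma adjusted p = 0.114), -0.87 within batch A and -1.02 within batch B.

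Mrps28, a small-subunit protein, had signals of 11.24, 11.10 and 11.20 after dexamethasone plus testosterone, 10.42, 10.66 and 10.89 after dexamethasone, and 11.19, 11.20 and 11.17 after vehicle. The vehicle arrays were nearly equal, and the dexamethasone arrays were below them and below the combined treatment. The change against vehicle was -0.53 ± 0.18 (limma adjusted p = 0.197), -0.76 within batch A and -0.54 within batch B.

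**Figure D3:**
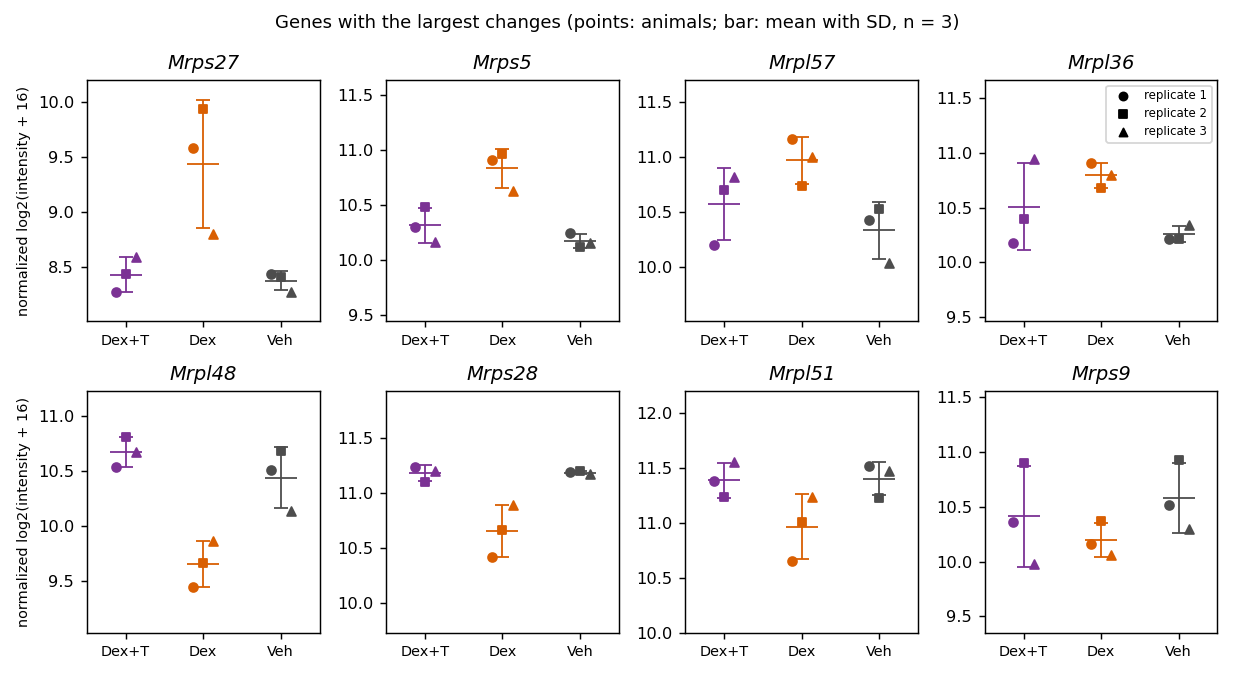
Normalized log2(intensity + 16) of the 4 genes with the highest and the 4 with the lowest change after dexamethasone; points are animals, marked by replicate number, and bars are means with SD (n = 3). The 3 dexamethasone values of Mrps27, Mrps5, Mrpl48 and Mrps28 lie outside the range of both other groups, whereas those of Mrps9 overlap them.

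The promoters of the 3 genes with the largest differences are shown because these genes lay farthest from the other members: Mrps27 and Mrps5 had higher and Mrpl48 lower signals after dexamethasone. The sequences are the 250 bases before the annotated start, 5' to 3' on the gene's strand, from RefSeq on GRCr8. Capitals mark CCGGAAG or its reverse complement CTTCCGG, a core bound by ETS family factors, and AAGATGG, a core bound by YY1; both factors are known for their sites at promoters of mitochondrial proteins.
Mrps27 (plus strand, chr2:32473954-32474203): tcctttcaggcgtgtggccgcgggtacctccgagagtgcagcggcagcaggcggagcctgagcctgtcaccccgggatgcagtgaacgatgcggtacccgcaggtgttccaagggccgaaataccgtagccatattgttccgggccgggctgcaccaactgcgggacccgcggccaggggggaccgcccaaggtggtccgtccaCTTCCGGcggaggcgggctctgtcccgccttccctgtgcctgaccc
Mrps5 (plus strand, chr3:135274083-135274332): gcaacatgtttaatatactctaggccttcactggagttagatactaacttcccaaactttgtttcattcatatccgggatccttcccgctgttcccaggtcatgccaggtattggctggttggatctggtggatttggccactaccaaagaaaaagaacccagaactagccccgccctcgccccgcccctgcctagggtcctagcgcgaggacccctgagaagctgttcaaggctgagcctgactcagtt
Mrpl48 (minus strand, chr1:164351377-164351626): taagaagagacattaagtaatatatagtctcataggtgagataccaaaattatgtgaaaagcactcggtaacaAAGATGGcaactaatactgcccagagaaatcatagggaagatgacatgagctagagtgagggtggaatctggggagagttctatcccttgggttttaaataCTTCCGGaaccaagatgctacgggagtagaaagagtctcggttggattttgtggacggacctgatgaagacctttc
The RefSeq table held promoters for 59 of the 73 members. Searched on both strands, the ETS core occurred in 13 of 59 (22%), against 7.74% of all 27457 promoters in the table. The YY1 core occurred in 5 (8.5%) against 4.63%, and GCGCATGC, a core bound by NRF1, in 5 (8.5%) against 2.38%. The glucocorticoid receptor half-site AGAACA occurred in 10 (16.9%) against 17.1%, and AGAACA followed after NNN by TGTTCT occurred in 0 of 59 and in 1 of the 27457 promoters (0.00364%). Mrps27 and Mrpl48, which differed in opposite directions, both hold an ETS core, and Mrps5 holds none of the motifs searched. A match is a description of these letters and not a site shown to be bound.

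The other extremes of this comparison were smaller. Higher after dexamethasone were Mrpl57, a mitochondria-specific large-subunit protein (0.64 ± 0.23, limma adjusted p = 0.232), Mrpl36, counterpart of a small bacterial large-subunit protein (0.54 ± 0.22, limma adjusted p = 0.282), and Mrpl55 (0.44 ± 0.21, limma adjusted p = 0.348). Mrpl57 was 0.93 higher within batch A but 0.21 within batch B. On the low side were Mrpl51 (-0.44 ± 0.21, limma adjusted p = 0.356), Mrps9 (-0.38 ± 0.27, limma adjusted p = 0.541) and Mrpl22 (-0.32 ± 0.19, limma adjusted p = 0.458). Under median scaling these last 3 changes were slightly above 0. On the representing probe set of Mrps9 both batch C arrays lay below all other arrays. Its other tested probe set had 9.802, 10.173 and 10.378 after dexamethasone, against 10.171, 10.245 and 10.048 after vehicle. Mrpl51 also has other tested probe sets. On the only such probe set that averaged higher, the values were 9.22, 8.405 and 8.649 after dexamethasone, against 8.258, 8.741 and 8.162 after vehicle. The remaining ones averaged lower after dexamethasone.

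Members named for their roles, whatever their result, had changes between -0.28 and 0.25, none past the threshold. Mrpl12, a protein of the flexible stalk that recruits translation factors and in human cells also binds the mitochondrial RNA polymerase, had a signal of 12.42, 12.31 and 12.68 after dexamethasone plus testosterone, 12.02, 12.06 and 12.16 after dexamethasone, and 12.52, 12.25 and 12.33 after vehicle. Its groups did not overlap between dexamethasone and vehicle, but the change was only -0.28 ± 0.18 (limma adjusted p = 0.492). Mrpl10, at the base of that stalk, changed by -0.02 ± 0.18, and Mrpl3, near the peptidyl transferase centre, by -0.11 ± 0.25. Mrpl44, related to RNase III, and Mrpl58, a peptidyl-tRNA hydrolase that frees stalled ribosomes, changed by 0.18 ± 0.27 and 0.25 ± 0.23. In the small subunit, Mrps7 changed by 0.23 ± 0.18, with no overlap between dexamethasone and vehicle arrays, and Mrps12, a decoding-centre protein, by -0.17 ± 0.19. Mrps30, which sits in the large subunit despite its symbol, changed by 0.09 ± 0.17. The adjusted p in limma was 0.492 or more for each of these 8 genes. Mrpl11 was not analysed here.

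Ordered by subunit, the medians for dexamethasone against vehicle were -0.04 for the 48 large-subunit genes and 0.05 for the 25 small-subunit genes. Ordered by descent, they were -0.06 for the 40 genes with a bacterial counterpart and 0.09 for the 33 that are specific to mitochondria. The median of all genes was 0.04, and under median scaling all 4 medians were above 0. Split both ways, 9 of 25 bacterial-type and 11 of 23 mitochondria-specific large-subunit genes lay above 0. So did 7 of 15 bacterial-type and 9 of 10 mitochondria-specific small-subunit genes, against 5666 of all 10428 genes. Without batch C these counts were 8, 12, 5 and 7.

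Genes whose arrays did not overlap between 2 groups were also counted, as a measure that needs no model. Between dexamethasone and vehicle 10 members were higher and 6 lower with no overlap, 21.9% of the 73, against 26.6% of all tested genes. Beside those named above, the higher ones include Mrpl32, Mrpl43, Mrps18a, Mrpl15 and Mrpl30, and the lower ones Mrpl19, Mrpl18 and Mrps15. Between dexamethasone plus testosterone and dexamethasone 9 were higher and 4 lower, 17.8% of the 73, against 16.3% of all genes. Between dexamethasone plus testosterone and vehicle 3 were higher (Mrpl15, Mrps18a and Mrpl55) and 0 lower, 4.11% of the 73, against 15% of all genes.

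For dexamethasone plus testosterone against dexamethasone, 42 members lay above 0 and 31 below. Their median was 0.05 log2 units against 0.00 for all genes, and -0.01 against -0.04 under median scaling, so its sign depends on the scaling. It was 0.06, 0.03 and 0.07 within batches A, B and C, 0.04 without batch C, and 0.12 without dexamethasone plus testosterone replicate 1, which had low slow-fibre signal (all genes 0.03). Mrpl48 was higher by 1.02 ± 0.21 (2.02-fold, limma adjusted p = 0.104), and by 1.09, 1.15 and 0.81 within batches A, B and C. With an intensity trend and robust variance in limma its adjusted p was 0.0367, the only call among members in this comparison, and over all alternatives its adjusted p ran from 0.0367 to 0.54. Mrps27 changed by -1.01 ± 0.28 (limma adjusted p = 0.215). Its within-batch changes were -1.31 in A, -1.51 in B and -0.21 in C.

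The next members on the high side were Mrps28 (0.53 ± 0.18, limma adjusted p = 0.321), Mrpl19 (0.48 ± 0.19), Mrpl18 (0.44 ± 0.18) and Mrpl51 (0.42 ± 0.21). On the low side were Mrps5 (-0.52 ± 0.18, limma adjusted p = 0.33), Mrpl57 (-0.40 ± 0.23), Mrpl14 (-0.38 ± 0.24) and Mrpl32 (-0.34 ± 0.17). The other tested probe set of Mrpl57 showed no such fall. It had 7.895, 7.583 and 7.432 after dexamethasone plus testosterone, against 7.215, 8.17 and 7.423 after dexamethasone. Mrpl14 did not keep its sign over the batches, at -0.72 (A), -0.54 (B) and 0.11 (C). The 95% interval lay within 1 log2 unit of 0 for 70 of 73 members, the exceptions being Mrpl42, Mrpl48 and Mrps27, against 68.2% of all genes.

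For dexamethasone plus testosterone against vehicle the members lay closest together. Their changes ran from -0.25 (Mrpl17) to 0.29 (Mrpl34), 69 of 73 were under 0.25 in size, and all 73 intervals lay within 1 log2 unit of 0, against 71.6% of all genes. The median was 0.08 against 0.04 for all genes, with 51 genes above 0; under median scaling it was 0.43 with all 73 above 0, against 0.25 for all genes. Within batch A it was 0.00 against -0.02 for all genes, within batch B 0.03 against 0.03, and without batch C 0.02 against 0.00. Without dexamethasone plus testosterone replicate 1 it was 0.12 against 0.07. The genes with the highest changes after Mrpl34 were Mrpl1 (0.27 ± 0.24), Mrpl58 (0.26 ± 0.23), Mrpl36 (0.25 ± 0.22) and Mrpl55 (0.25 ± 0.21). The lowest after Mrpl17 were Mrpl14 (-0.21 ± 0.24), Mrpl53 (-0.19 ± 0.18), Mrps9 (-0.17 ± 0.27) and Mrpl40 (-0.15 ± 0.20). The 4 genes that differed most after dexamethasone were at 0.06 ± 0.28 (Mrps27), 0.14 ± 0.18 (Mrps5), 0.23 ± 0.21 (Mrpl48) and 0.00 ± 0.18 (Mrps28) in this comparison. The median half-width of the 95% intervals was 0.45 log2 units, so smaller shifts of a single gene could not be resolved with 3 animals per group.

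Genes that work with the mitochondrial ribosome were taken from lists chosen with earlier results of these data known. Of 6 mitoribosomal proteins with other symbols, 12 translation factors, 16 aminoacyl-tRNA synthetases, 24 assembly factors and 24 genes of mitochondrial DNA expression, 0 were called in any comparison with all arrays. For dexamethasone against vehicle their medians were 0.09, 0.14, 0.05, 0.15 and 0.21 in that order, and 0.03, -0.03, 0.08, 0.06 and 0.20 without batch C; under median scaling they ran from 0.274 to 0.485 against 0.277 for all genes. The translation factors had array medians of 0.43 on dexamethasone plus testosterone replicate 3 and 0.32 on dexamethasone replicate 3, the batch C arrays, against -0.03 to 0.11 on the other 7. The list medians of dexamethasone plus testosterone against dexamethasone lay between -0.10 and 0.00, and between -0.10 and 0.05 without batch C. Those of dexamethasone plus testosterone against vehicle lay between 0.01 and 0.25, the highest being that of the translation factors, and between -0.01 and 0.02 without batch C. Under that setting 1 gene of the lists was called, for dexamethasone against vehicle: Mss51, named for a yeast activator of mitochondrial translation, at -1.23 (limma adjusted p = 0.0355), against -0.74 ± 0.37 (limma adjusted p = 0.382) with all arrays. Among proteins of the ribosome itself, Dap3, a GTP-binding small-subunit protein, changed by 0.24 ± 0.19 after dexamethasone (limma adjusted p = 0.581). Of the elongation and initiation factors, Tufm changed by 0.00 ± 0.22, Tsfm by -0.09 ± 0.24, Gfm1 by -0.02 ± 0.24 and Mtif2 by 0.21 ± 0.32. Of the genes of mitochondrial DNA expression, none of which passed the test, Elac2 changed most, by 1.06 ± 0.32 (limma adjusted p = 0.151). Of those named whatever their result, Polrmt, the mitochondrial RNA polymerase, changed by 0.53 ± 0.28 (limma adjusted p = 0.414). Tfam, which packages mitochondrial DNA and starts its transcription, changed by 0.46 ± 0.26 (limma adjusted p = 0.444). Tfb1m, a methyltransferase of the small ribosomal RNA counted here with the assembly factors, changed by 0.51 ± 0.21 (limma adjusted p = 0.281). Lrpprc, which stabilises mitochondrial messenger RNA, changed by -0.05 ± 0.21.

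Gadd45gip1, a large-subunit protein also called CRIF1, was picked out after its values were seen. Its signal was 11.13, 11.52 and 11.37 after dexamethasone plus testosterone, 10.19, 10.48 and 10.78 after dexamethasone, and 11.27, 11.55 and 11.23 after vehicle. As for Mrpl48, all 3 dexamethasone arrays were below the other 6. The change was -0.87 ± 0.21 against vehicle (limma adjusted p = 0.0935) and 0.85 ± 0.21 for dexamethasone plus testosterone against dexamethasone (limma adjusted p = 0.165).

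**Figure D4:**
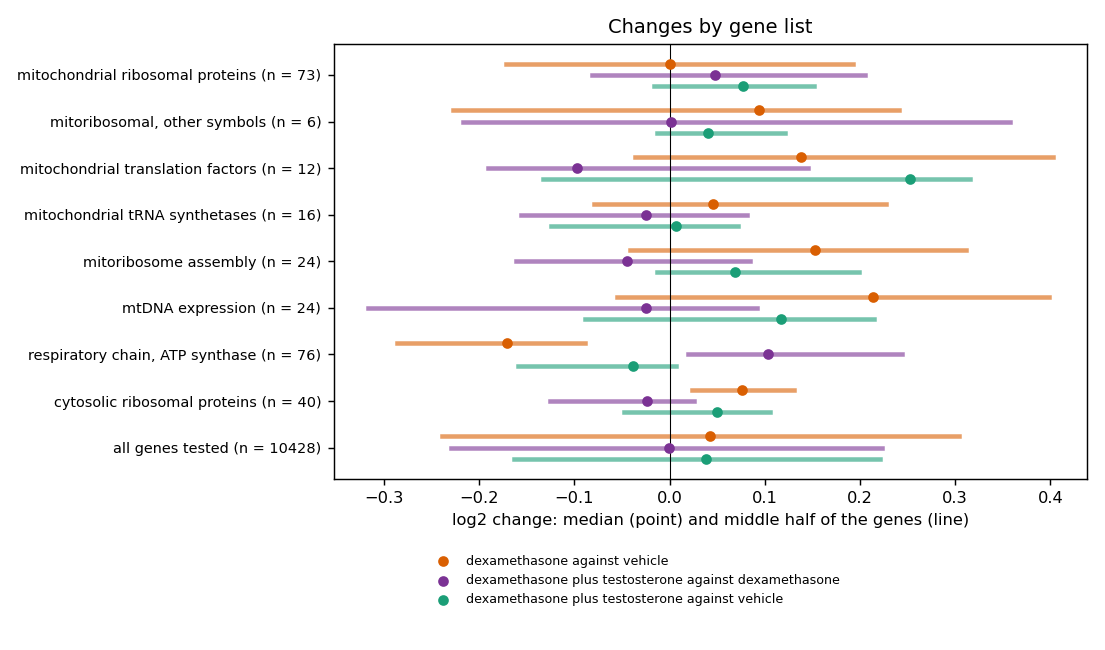
Points are median log2 changes of each gene list and lines span the middle 50% of its genes, for the 3 comparisons. The mitochondrial ribosomal proteins lie near the median of all 10428 tested genes in each comparison, and the respiratory chain and ATP synthase genes lie below it for dexamethasone against vehicle.

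The nuclear genes of the respiratory chain and ATP synthase, many of which have partners encoded by mitochondrial DNA and made on this ribosome, differed from its proteins in the position of their median. For dexamethasone against vehicle 68 of 76 lay below 0 with a median of -0.17, against 37 of 73 mitochondrial ribosomal protein genes with a median of 0.00. This median rested largely on 1 array: the array medians were -0.44, -0.02 and -0.04 on the dexamethasone arrays, against 0.03, 0.03 and -0.06 on the vehicle arrays. Inside batch A it was -0.43 and inside batch B -0.05, and under median scaling it was 0.15, below the 0.28 of all genes. Cytosolic ribosomal proteins, the other ribosome of the cell, had a median of 0.08 for 40 tested genes, with array medians of 0.28, -0.14 and 0.10 after dexamethasone against -0.03, 0.02 and 0.01 after vehicle. For dexamethasone plus testosterone against dexamethasone the medians were 0.10 for the respiratory chain list, -0.02 for the cytosolic ribosomal list and 0.05 for mitochondrial ribosomal proteins. No gene of either comparison list was called in any comparison, and the difference between the lists was not tested.

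The choice of probe set mattered for individual genes. Of 16 members with several tested probe sets, all probe sets had the same sign in 11 genes for dexamethasone against vehicle, 10 for dexamethasone plus testosterone against dexamethasone and 7 for dexamethasone plus testosterone against vehicle, and 0 of 93 member probe sets were called. Both batch C arrays, with their high 3' to 5' ratio, lay below the other 7 in 3 of the 73 probe sets that represent a gene and in 6 of the 24 other member probe sets. These were 4.11% and 25%, against 6.85% of all probe sets and 9.36% of the tested ones. The 24 are the dimmer probe sets of their genes, and no share was taken over such probe sets of the whole table. The same 2 arrays lay above the other 7 in 9 of the 73 and 1 of the 24, or 12.3% and 4.17%. The share was 7.61% over all probe sets and 9.75% over the tested ones. The largest gaps on the low side were in other probe sets of Mrpl37 (-2.17 log2 units), Mrps27 (-2.12), Mrps2 (-1.73) and Mrpl10 (-1.46). Among representing probe sets, Mrpl1, Mrpl34 and Mrpl44 were 0.55, 0.58 and 0.59 higher on the batch C arrays, and Mrpl1 and Mrpl34 are also among the highest changes for dexamethasone plus testosterone against vehicle. Within batch A these 2 genes changed by -0.08 and -0.07 in that comparison, and within batch B by 0.50 and 0.27. For these genes the batch and the treatment are partly mixed, and the part of the batch was not tested.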

How the data were processed

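Total RNA of gastrocnemius muscle was labelled for an Affymetrix rat genome array, per the labels' protocols. The deposited values are linear intensities per probe set; the signal algorithm is not given in the sources used here. Trimmed means were 500 on 5 arrays and 113.2 to 206.7 on 4, so the arrays were not on a common scale, and log2 array medians spanned 1.82.

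After removing 57 controls, log2(intensity + 16) was quantile normalized, probe sets averaging below the 40th percentile were dropped, and the remaining 18625 were fitted with limma 3.58.1 in R 4.3.3 (lmFit, eBayes, 3 group means over 9 arrays), with Benjamini-Hochberg adjustment at 0.05. Fold changes are on the log2(intensity + 16) scale, which understates changes of dim probe sets. All printed SE values, intervals and adjusted p-values come from that fit. Symbols came from the platform annotation, updated by gene ID, with 20826 probe sets having 1 symbol, 436 several and 9780 none here. Each gene is read from its brightest probe set over the 9 arrays.

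The members and lists were chosen with earlier results of these data known. Named genes are the 5 highest and 5 lowest members per comparison, any member past the threshold, and a fixed list of members and pathway genes. The labels number replicates 1 to 3 in each group; same-numbered arrays correlated in their deviations from group means at -0.201 to 0.587 over 9 pairs and were not treated as paired. The number of arrays limits precision. Alternatives were another scaling, pseudocounts, filters, variance models, probe set summaries, batch and replicate blocks, and leaving out arrays.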

Additional observations from a re-analysis of the deposited data

How the results depend on the processing

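Each comparison was recomputed under 20 alternatives. Members were called under 2 of them for dexamethasone against vehicle (1 gene, Mrps27, both without technical batch C and without dexamethasone replicate 3, so 0 to 1 when leaving out 1 array), under 1 for dexamethasone plus testosterone against dexamethasone (1 gene, Mrpl48, with an intensity trend and robust variance), and under 0 for dexamethasone plus testosterone against vehicle. Leaving out 1 array, the members' median ran from -0.064 to 0.052, from 0.008 to 0.124 and from 0.019 to 0.122 in these comparisons. With the replicate number as a block, 0 members were called in each and the medians were 0.00, 0.05 and 0.08, while the whole table had 13, 0 and 0 calls. Calls over the whole table ran from 1 to 510 for dexamethasone against vehicle (1 to 340 leaving out 1 array) and from 0 to 149 for dexamethasone plus testosterone against dexamethasone (0 to 67), so a call at this threshold depends on single arrays; the cause was not tested. For dexamethasone against vehicle the table held 130 calls under median scaling, 54 and 414 with pseudocounts 1 and 64, 48 with no filter and 469 at the 60th percentile, 510 with the trend, 123 with the 2 groups alone and 460 without batch C; for dexamethasone plus testosterone against dexamethasone it held 6, 5, 102, 0, 83, 149, 0 and 39 in the same order, and 13 with the mean of a gene's probe sets.

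Median scaling moved the median of all genes to 0.277 and 0.25 for both treatments against vehicle, dexamethasone first, and the members' medians to 0.421 and 0.428. It turned above 0 the dexamethasone changes of Gfm1 (0.382), Lrpprc (0.418), Mrpl10 (0.298), Mrpl12 (0.142), Mrpl22 (0.108), Mrpl3 (0.337), Mrpl51 (0.022), Mrps12 (0.24), Mrps9 (0.032) and Tsfm (0.219). For dexamethasone plus testosterone against vehicle it did so for Mrpl14 (0.1), Mrpl17 (0.142), Mrpl40 (0.226), Mrpl53 (0.209) and Mrps9 (0.183). The dexamethasone change of Tufm was -0.103 with the mean of its probe sets, -0.163 with the batch as a block and -0.159 without batch C; those of Mrpl44 were -0.055 and -0.011 with the latter pair of settings, and that of Mtif2 was -0.027 without batch C. Mrps9 in dexamethasone plus testosterone against vehicle was 0.048 without batch C. Leaving out 1 array also changed the sign for Lrpprc (-0.183 to 0.031), Mrpl10 (-0.077 to 0.06), Gfm1 (-0.169 to 0.214), Mrpl3 (-0.277 to 0.101), Tsfm (-0.246 to 0.087), Tufm (-0.16 to 0.184), Mrpl44 (-0.011 to 0.314) and Mtif2 (-0.026 to 0.405) after dexamethasone, and for Mrps9 (-0.409 to 0.048) in dexamethasone plus testosterone against vehicle. The causes were not tested.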

Other observations

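Mrpl37, a large-subunit protein, has a dim probe set that was left out by the filter and therefore has no test. Its normalized log2 signal was 5.11, 4.94 and 4.76 after dexamethasone plus testosterone and 5.38, 5.24 and 5.17 after dexamethasone, against 6.07, 6.04 and 5.77 after vehicle. The vehicle arrays were the 3 highest of the 9. This probe set was picked out after its values were seen. Over all tested genes, 26.6% did not overlap between dexamethasone and vehicle, and 15% between dexamethasone plus testosterone and vehicle. On another probe set of Mrpl37, which was tested, the groups overlapped. It had 9.51, 9.33 and 6.89 after dexamethasone plus testosterone and 7.77, 9.45 and 6.90 after dexamethasone, against 8.90, 9.64 and 8.87 after vehicle. The representing probe set of the same gene, which is much brighter, had 11.28, 12.02 and 11.45 after dexamethasone plus testosterone and 11.07, 11.37 and 11.15 after dexamethasone, against 11.51, 11.56 and 11.23 after vehicle, with both treated groups overlapping the vehicle range.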
